A study of Mus musculus with 12 samples.

Results

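The 10 genes described here are markers that pathologists and biologists use for fetal-type hepatocytes and for bile duct or progenitor-type epithelium in liver: Afp, Gpc3, H19, Igf2, Krt19, Krt7, Krt23, Sox9, Epcam and Spp1. They were chosen by name, with no threshold on their values but with earlier results of these data known, and are 10 of the 47729 genes in the count tables. All 10 had enough reads to be tested, among 16823 genes in all. Liver RNA of 12 male C57BL/6 mice was sequenced, 4 in each of 3 groups, all dosed once a day from week 6 to week 9 and examined at about 9 weeks of age. Naive_vehicle mice stayed on normal diet, had no streptozotocin and received vehicle. STAM mice were injected with streptozotocin, a toxin of the insulin-producing beta cell, on day 2 after birth and fed a high-fat diet from week 4. In STAM_vehicle mice this was followed by vehicle, and in STAM_treated mice by 10 mg/kg I-BET151, a small molecule that blocks the acetyl-lysine pockets of the BET bromodomain proteins. Because toxin and diet were always given together, their effects cannot be told apart. Nodules appear in the model at about weeks 11 to 12, after the age of the livers examined here.

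Afp, Gpc3, H19 and Igf2 are called oncofetal because hepatocytes of the fetal liver express them, the adult liver largely silences them, and hepatocellular carcinoma often expresses them again. Krt19, Krt7, Sox9, Epcam and Spp1 are instead expressed by the cells lining bile ducts in the healthy adult liver, and they increase when ducts proliferate or injured hepatocytes take on ductal features (a ductular reaction). Krt23 is a keratin of stress and ductular injury, and Spp1 (osteopontin) is also made by macrophages.

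H19 and Igf2 lie close together on chromosome 7 and are imprinted, H19 being read from the maternal and Igf2 from the paternal copy. H19 is a long non-coding RNA that also carries the microRNA miR-675 in its first exon. As H19 had the largest fold change of the 10 genes, both mature miR-675 strands are shown, with the seed (bases 2 to 8) in capitals. Both lie on the minus strand of GRCm38.p6 and come from RefSeq, the 5p strand at chr7:142577112-142577133 and the 3p strand at chr7:142577078-142577099.
mmu-miR-675-5p: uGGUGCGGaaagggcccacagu
mmu-miR-675-3p: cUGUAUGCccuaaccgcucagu
The seeds of the 2 strands differ. The Mir675 gene itself had 0 counts in each of the 12 libraries, and since its 84 bases lie wholly within H19 exon sequence, the tables carry no information on the mature microRNA.

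RefSeq start-site windows, from 250 bases before to 50 bases after an annotated start, were held for 7 of the 10 genes, namely Afp, Gpc3, Igf2, Krt7, Krt23, Epcam and Spp1. The windows of Afp, Igf2 and Krt23 are printed because these genes rose together in STAM_vehicle livers. Capitals mark matches, on either strand, to 4 short motifs. The TATA box was searched as TATAAA, which 13.6% of the 32851 mouse windows of this length hold. A half-site of the liver factor HNF1 was searched as GTTAAT and is held by 7.10% of windows. The CCAAT box, searched by the letters of its name, is held by 37.4%, and the GC box, GGGCGG, by 35.7%. No match in the windows of the 7 genes overlaps another. The Afp window lies on the plus strand at chr5:90490464-90490763. Igf2 has 4 annotated windows, of which that of the most downstream start is shown, on the minus strand at chr7:142657447-142657746. The Krt23 window is on the minus strand at chr11:99493071-99493370.
Afp: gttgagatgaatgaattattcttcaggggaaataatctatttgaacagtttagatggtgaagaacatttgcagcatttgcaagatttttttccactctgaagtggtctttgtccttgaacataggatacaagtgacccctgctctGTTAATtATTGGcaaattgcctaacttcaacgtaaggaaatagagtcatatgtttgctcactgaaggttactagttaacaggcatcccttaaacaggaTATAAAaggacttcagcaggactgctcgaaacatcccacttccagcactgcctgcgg
Igf2: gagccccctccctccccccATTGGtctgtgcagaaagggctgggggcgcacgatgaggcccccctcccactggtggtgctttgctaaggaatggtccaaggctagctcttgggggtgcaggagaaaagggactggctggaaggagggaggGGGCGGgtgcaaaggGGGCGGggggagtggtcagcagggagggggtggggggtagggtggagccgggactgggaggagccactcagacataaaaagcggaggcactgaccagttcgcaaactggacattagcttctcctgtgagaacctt
Krt23: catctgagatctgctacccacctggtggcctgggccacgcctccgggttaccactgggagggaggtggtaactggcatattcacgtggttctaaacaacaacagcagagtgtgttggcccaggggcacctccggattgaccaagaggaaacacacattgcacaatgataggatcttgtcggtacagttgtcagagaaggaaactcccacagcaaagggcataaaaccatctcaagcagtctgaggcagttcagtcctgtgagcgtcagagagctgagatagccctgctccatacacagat
The Afp window held a TATA box, an HNF1 half-site and, on the reverse strand, a CCAAT box. The Igf2 window held a reverse-strand CCAAT box and 2 GC boxes, and the Krt23 window held none of the 4 motifs. No motif was therefore common to the 3 windows, which is a statement about these letters only. Among the other genes, the first window of Spp1 held the same 3 kinds of motif as that of Afp, while Gpc3 and Krt7 each held 4 GC boxes.

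Before the values are given, a library that stood apart needs mention. STAM_treated mouse 3 had a TMM scaling factor of 1.61, against 0.770 to 1.11 in the other 11 mice. Its mitochondrial transcripts made up 2.71% of counts, against 4.51% to 7.30%, and its 10 highest genes took 7.95%, against 13.5% to 18.0%. The 6 hepatocyte markers, which define the labelled tissue, summed to 18178 CPM in it and to 47078 CPM or more in the others. Results are therefore also given without this mouse. Total counts ranged from 34711229 to 53365596 per mouse. Levels are in CPM, which are counts relative to each library's total after TMM correction, and fold changes are log2 values with their standard error (SE) from edgeR's quasi-likelihood test over all genes, adjusted by the Benjamini-Hochberg method.

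The first comparison, STAM_vehicle against Naive_vehicle, asks what the disease model did to these genes. Of the 10 genes, 4 were higher in STAM_vehicle livers (H19, Krt23, Afp and Igf2) and 0 were lower when the adjusted p was held to 0.05. Over all genes tested, 5.72% were called higher and 1.38% lower. Without STAM_treated mouse 3, Krt7 joined them (5 of 10), and the shares of all genes rose as well, to 12% higher and 10.3% lower. The median log2 fold change was 0.68 over the 10 genes and 0.01 over all genes. Every STAM_vehicle mouse exceeded every naive mouse for 5 of the 10 genes (these 4 and Krt7), which was so for 14.2% of all genes. In whole liver tissue a change in the number of cells of a type and a change in RNA per cell cannot be told apart.

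**Figure D1:**
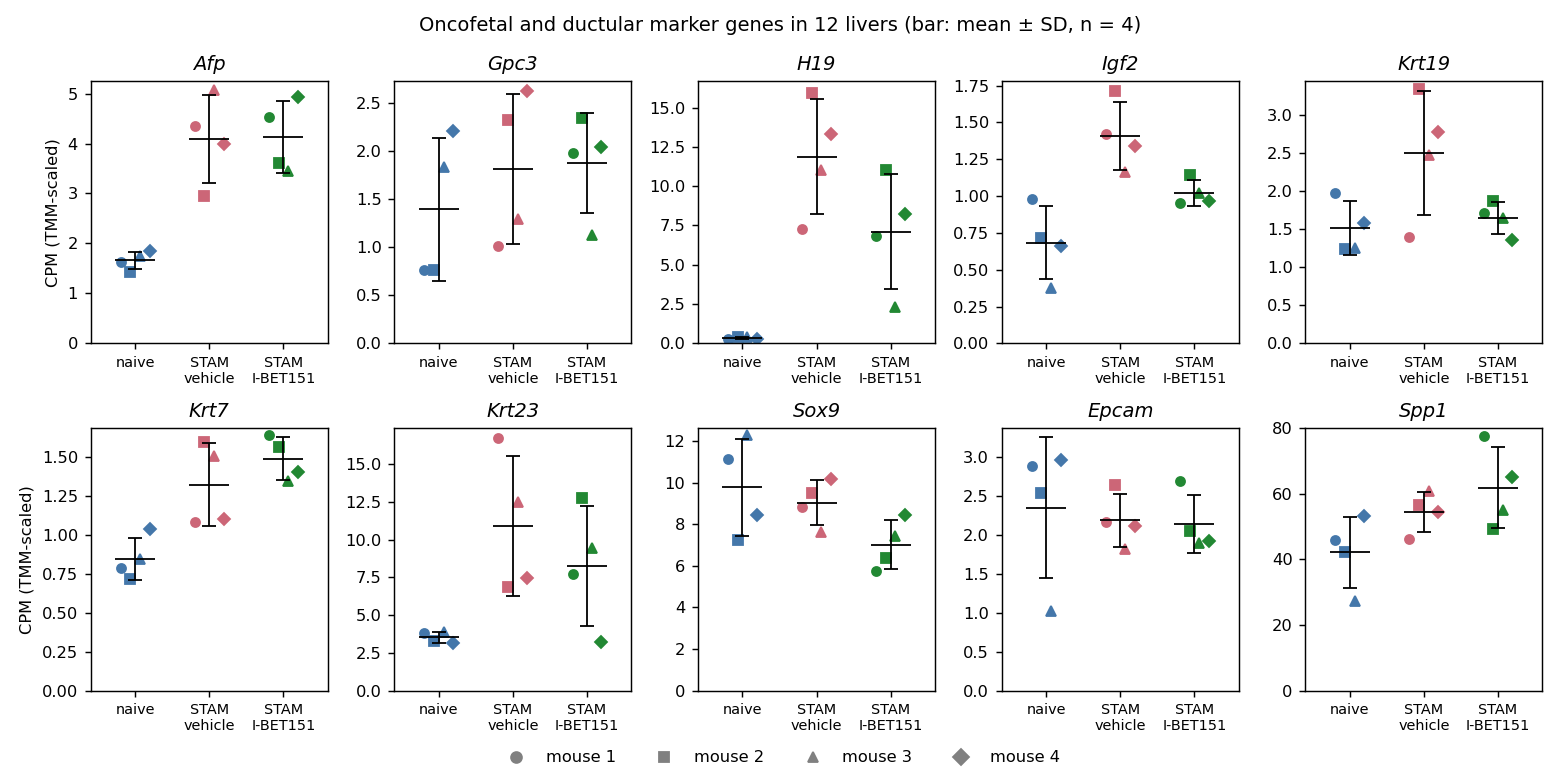
Level of each of the 10 genes in each mouse, in CPM on linear axes that start at 0, with a panel per gene, a symbol per mouse and bars for the mean ± SD of 4 mice. The 4 naive mice lie below all STAM_vehicle mice in the panels of Afp, H19, Igf2, Krt7 and Krt23, whereas the groups overlap in the others.

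H19 (ENSMUSG00000000031) lies on the minus strand of chromosome 7 of GRCm38 from 142575529 to 142578143. It was at 0.255, 0.397, 0.378 and 0.288 CPM in naive mice 1 to 4, which rested on 10 to 15 counts per library. In STAM_vehicle mice 1 to 4 the values were 7.28, 15.9, 11.03 and 13.3 CPM, and in STAM_treated mice 6.85, 11.1, 2.31 and 8.25 CPM. All STAM mice of both kinds were far above all naive mice, and the lowest STAM value was that of the treated mouse 3 library. H19 rose by a log2 fold change of 5.17 (SE 0.46, adjusted p = 5.2e-05), from 0.330 ± 0.0688 to 11.9 ± 3.65 CPM (SD, n = 4), or 36.0-fold. No other gene of the 10 changed by as much.

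Igf2 (ENSMUSG00000048583), the fetal growth factor next to H19, is on the minus strand of chromosome 7 from 142650766 to 142666816. It measured 0.979, 0.715, 0.378 and 0.661 CPM in naive mice and 1.42, 1.71, 1.16 and 1.34 CPM in STAM_vehicle mice. The groups did not overlap, but the highest naive mouse came close to the lowest STAM_vehicle mouse. Igf2 rose by 1.03 on the log2 scale (SE 0.27, adjusted p = 0.0363). It no longer passed the threshold when any of naive mice 2, 3 and 4 or any STAM_vehicle mouse was left out (adjusted p from 0.05998 to 0.104). Igf2 shares 3596 exonic bases on the same strand with Gm49394, a read-through gene model that is not in the count tables, so its reads may include those of that model.

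Afp (ENSMUSG00000054932), the fetal counterpart of albumin and a serum marker of liver cancer, is on the plus strand of chromosome 5 from 90490737 to 90508907. Naive livers held 1.64, 1.43, 1.74 and 1.84 CPM and STAM_vehicle livers 4.35, 2.95, 5.07 and 3.99 CPM. The naive values were tightly grouped and every STAM_vehicle value was above them. The log2 fold change was 1.30 (SE 0.20, adjusted p = 0.00235), a 2.46-fold rise. Both H19 and Afp passed the threshold in each of the 12 fits that left out a mouse.

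Gpc3 (ENSMUSG00000055653), a glypican of the cell surface used to diagnose liver cancer, is on the minus strand of the X chromosome from 52272426 to 52613950. Unlike the other oncofetal genes of the set it had no call. Its values of 0.766, 0.768, 1.83 and 2.21 CPM in naive mice overlapped those of 1.01, 2.32, 1.30 and 2.63 CPM in STAM_vehicle mice (log2 fold change 0.39, SE 0.40, adjusted p = 0.612). Within each of these groups the mice fell into a low and a high pair, so the spread among mice of a group exceeded the difference between the groups.

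Among tested genes, the one most like Gpc3 over the 12 mice was Msln (mesothelin, Pearson r = 0.884 of log2 CPM), a marker of the mesothelium that covers the liver. Mup17 (0.835) and Mup18 (0.820), which are not mesothelial markers, came next and were not followed. The likeness to Msln was noticed from the values and led to a look at the whole list of mesothelial markers. Of these, 5 of 6 had enough counts to be tested and 0 were at 0 in all mice of a group. The summed level of the 6 markers was 3.10 to 7.44 CPM in naive, 3.05 to 6.70 CPM in STAM_vehicle and 4.91 to 6.04 CPM in STAM_treated livers. Gpc3 followed that sum over the 12 mice (Pearson r = 0.802, permutation p = 0.0037, and Spearman rho = 0.706, permutation p = 0.013). It was a single relation, chosen after its values were seen, and Msln itself is in the sum, so these p-values are not independent evidence. Without the 2 mice farthest from the median sum, r was 0.697 (permutation p = 0.034, n = 10), and r was 0.853 for deviations from the group means. With the sum of the 5 markers other than Msln the relation was weaker (Pearson r = 0.712, permutation p = 0.013, and Spearman rho = 0.580, permutation p = 0.053). It then rested on the 2 mice farthest from the median, without which r was 0.551 (permutation p = 0.11, n = 10). The 6 sequencing lanes hold too few mice for a value within each lane. Whether the amount of liver surface sampled plays a part in the Gpc3 values was not tested.

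**Figure D2:**
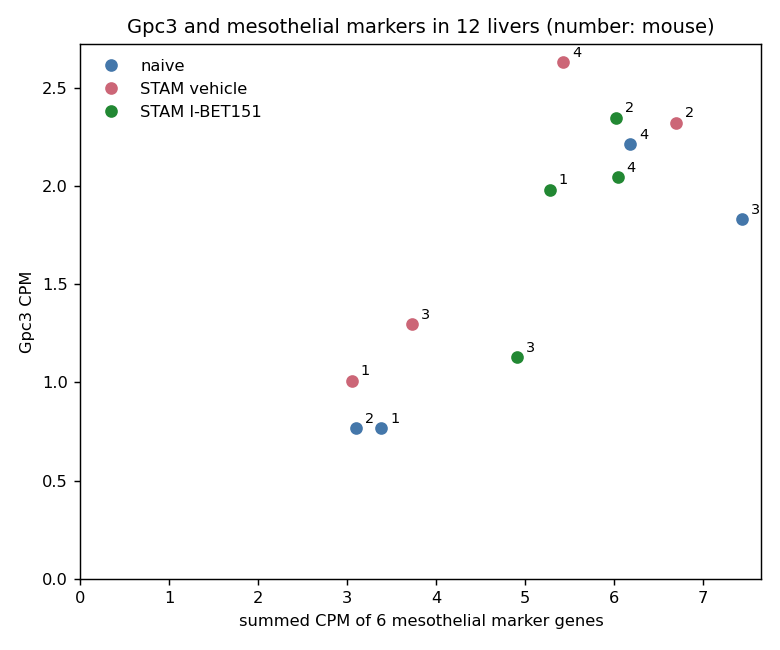
Gpc3 in CPM against the summed CPM of 6 mesothelial marker genes in each of 12 livers, numbered by mouse and coloured by group. Mice low in both measures include naive mice 1 and 2 and STAM_vehicle mice 1 and 3, so each of these groups spans the range.

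Of the ductular genes, Krt23 (ENSMUSG00000006777, minus strand of chromosome 11 from 99477974 to 99493137) had the largest change. Its levels were 3.83, 3.31, 3.87 and 3.16 CPM in naive mice and 16.7, 6.89, 12.5 and 7.47 CPM in STAM_vehicle mice. All STAM_vehicle mice were above the naive mice, mouse 1 the most and mouse 2 the least. Krt23 rose by 1.62 on the log2 scale (SE 0.36, adjusted p = 0.0171), or 3.08-fold. It missed the threshold without naive mouse 2, 3 or 4 or without STAM_vehicle mouse 3 (adjusted p from 0.05105 to 0.05827).

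The keratins of mature bile duct cells moved less. Krt7 (ENSMUSG00000023039, plus strand of chromosome 15 from 101411043 to 101430313) was at 0.787, 0.715, 0.843 and 1.04 CPM in naive and 1.08, 1.60, 1.51 and 1.10 CPM in STAM_vehicle livers. The groups just failed to overlap. Its log2 fold change of 0.65 (SE 0.22, adjusted p = 0.0947) missed the threshold with all 12 mice. It was 0.63 and passed without STAM_treated mouse 3 (adjusted p = 0.0415). That mouse is in neither group compared, but it enters through the shared estimate of spread, the scaling and the set of genes tested (16967 without it, 16823 with it). Krt19 (ENSMUSG00000020911, minus strand of chromosome 11 from 100140810 to 100148665) was at 1.98, 1.25, 1.25 and 1.58 CPM in naive and 1.39, 3.33, 2.48 and 2.78 CPM in STAM_vehicle livers. STAM_vehicle mouse 1 lay among the naive mice and the other 3 above them. The log2 fold change was 0.72 (SE 0.26, adjusted p = 0.120), and without STAM_vehicle mouse 1 it was 0.91 (adjusted p = 0.0374).

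Sox9 (ENSMUSG00000000567, plus strand of chromosome 11 from 112782224 to 112787760) encodes the transcription factor that marks duct cells and hepatocytes turning duct-like. Naive livers had 11.2, 7.26, 12.3 and 8.42 CPM and STAM_vehicle livers 8.82, 9.52, 7.64 and 10.2 CPM. All STAM_vehicle values lay inside the naive range (log2 fold change -0.11, SE 0.18, adjusted p = 0.759). Epcam (ENSMUSG00000045394, plus strand of chromosome 17 from 87635979 to 87651129), an adhesion molecule of duct and progenitor cells, was at 2.89, 2.54, 1.02 and 2.96 CPM in naive and 2.16, 2.65, 1.82 and 2.12 CPM in STAM_vehicle livers. Naive mouse 3 was the lowest of all 12 mice, and the log2 fold change was -0.11 (SE 0.28, adjusted p = 0.862). With library-size scaling in place of TMM both fold changes turned positive (0.16 for Sox9 and 0.13 for Epcam), about the size by which this scaling moved the median gene (0.272).

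Spp1 (ENSMUSG00000029304, plus strand of chromosome 5 from 104435118 to 104441050), a secreted matrix protein, was at 45.9, 42.4, 27.4 and 53.2 CPM in naive and 46.2, 56.6, 60.9 and 54.6 CPM in STAM_vehicle livers. The groups overlapped through naive mouse 4, and the difference did not pass the test (log2 fold change 0.37, SE 0.19, adjusted p = 0.285). Macrophage markers moved between these groups. Of 6 general markers 3 were higher (Cd68, Adgre1 and Clec4f), as were 4 of 6 markers of lipid-associated macrophages (Gpnmb, Trem2, Cd63 and Lpl). Over all genes 5.72% were called higher. Without STAM_treated mouse 3 the numbers were 5 and 4, against 12% of all genes. The sum of the lipid-associated macrophage markers went from 30.3 to 42.1 CPM in naive to 61.4 to 145 CPM in STAM_vehicle livers. The part of macrophages in the Spp1 level was not tested. Of 7 tested receptors of osteopontin, only Cd44 passed, rising by 1.05 on the log2 scale (SE 0.28, adjusted p = 0.0388).

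Sequencing lanes, known from the names of the deposited tables, were mixed unevenly among groups, and only lane 2 held both a naive and a STAM_vehicle mouse. Within it the log2 ratio of STAM_vehicle mouse 4 to naive mouse 1 was 5.70 for H19, 1.28 for Afp, 0.96 for Krt23, 0.49 for Krt7 and 0.45 for Igf2, all positive. With lane as a covariate H19 alone of the 10 genes stayed past the threshold (log2 fold change 6.00, adjusted p = 0.0112), while Afp was at 1.31 (adjusted p = 0.256), Krt23 at 1.53 (adjusted p = 0.400) and Igf2 at 0.68 (adjusted p = 0.776). Lane 4 and lane 8 each held mice of a single group.

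The order of levels among the genes, compared as CPM per kilobase of annotated exon, also shifted. Spp1 was highest in all 3 groups, at 25.6 ± 6.58 CPM per kilobase in naive and 33.1 ± 3.74 in STAM_vehicle livers. In naive livers Sox9 (2.37 ± 0.566) and Krt23 (2.26 ± 0.229) came next and did not differ beyond their spread, and H19 (0.134 ± 0.0280), Krt7 (0.120 ± 0.0194) and Igf2 (0.119 ± 0.0431) were lowest and likewise within their spread. In STAM_vehicle livers Krt23 (6.97 ± 2.96) and H19 (4.83 ± 1.49) took ranks 2 and 3, again overlapping in spread, ahead of Sox9 (2.19 ± 0.261). H19 thus moved from rank 8 to rank 3 of 10. The values are SD over 4 mice.

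**Figure D3:**
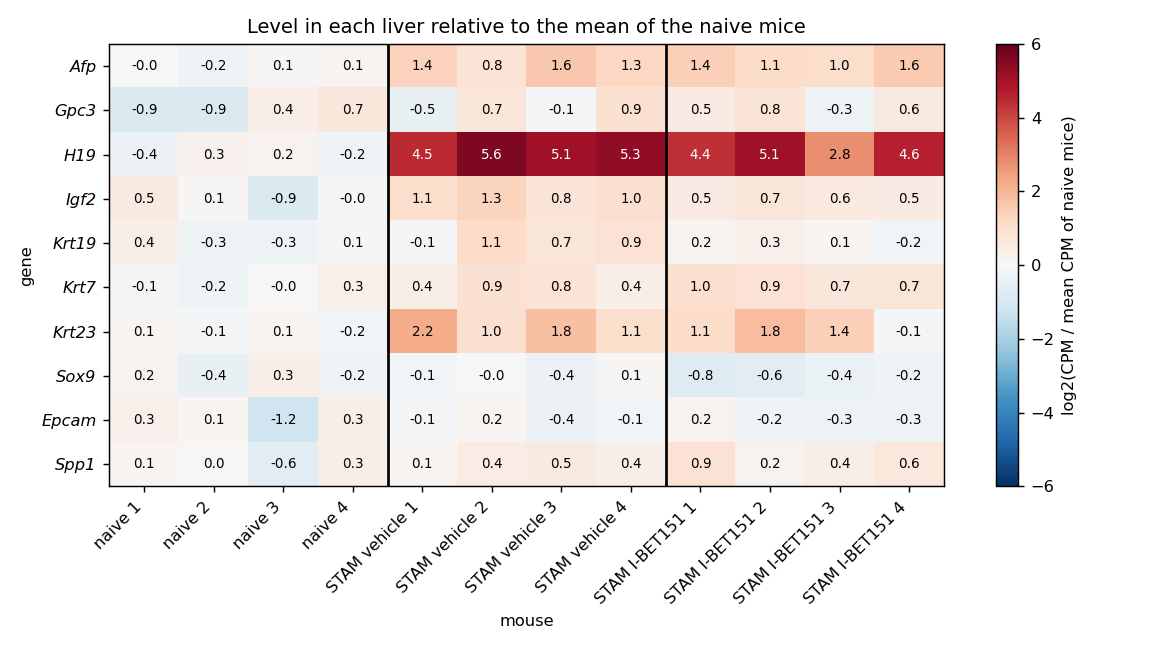
Level of each gene in each mouse as log2 of its CPM over the mean CPM of the 4 naive mice, with red above and blue below that mean and black lines between groups. H19 is at least 2.8 in all 8 STAM mice, Afp and Krt7 are positive in all 8, and Sox9 and Epcam stay near or below 0 in most of them.

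The second comparison, STAM_treated against STAM_vehicle, asks what I-BET151 did in diseased liver. By the study's methods the drug was suspended in hydroxypropyl methylcellulose with Tween, whereas the vehicle control was methylcellulose. Effects of drug and carrier therefore cannot be told apart here. In either direction, edgeR's test called 0 of the 10 genes with the adjusted p held to 0.1, with or without STAM_treated mouse 3, and DESeq2 called 0 as well. Over all genes 0.0951% were called higher and 0.256% lower, and without that mouse 0.914% and 1.46%. At an unadjusted p under 0.05 from edgeR's fit across all genes there was 1 of the 10 genes, Krt19, against 8.68% of all genes. The median log2 fold change was -0.20 over the 10 genes and 0.02 over all genes. At this group size and spread, the SE of the fold changes lay between 0.18 and 0.40.

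Krt19 was at 1.71, 1.87, 1.65 and 1.36 CPM in STAM_treated mice 1 to 4. These values lay within the range of naive mice and below 3 of the 4 STAM_vehicle mice. The log2 fold change from STAM_vehicle was -0.60 (SE 0.26, adjusted p = 0.535) and -0.60 without STAM_treated mouse 3 (adjusted p = 0.282).

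For Igf2, the treated values of 0.955, 1.14, 1.02 and 0.965 CPM were all below the lowest STAM_vehicle mouse. Igf2 alone of the 10 genes separated these groups, lower in treated mice, as did 2.63% of all genes. The difference of -0.46 (SE 0.26, adjusted p = 0.668) did not pass the test, and it was -0.46 as well without treated mouse 3 (adjusted p = 0.390). Within lanes 2, 6 and 7, the log2 ratio of the treated to the vehicle mouse was -0.47, -0.57 and -0.18.

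H19 differed by -0.75 (SE 0.36, adjusted p = 0.590), with overlapping groups. This was the largest difference of the 10 genes with all 12 mice only, since without treated mouse 3 it was -0.45 (SE 0.24, adjusted p = 0.351), smaller than that of Krt19. The lanes gave -0.69, -0.09 and -2.25, the last of them from the lane that holds treated mouse 3. Afp, at 4.54, 3.62, 3.44 and 4.94 CPM in treated mice, was close to its STAM_vehicle level (log2 fold change 0.02, SE 0.19, adjusted p = 0.991), and the sign of this difference changed among the alternative analyses. Gpc3, at 1.98, 2.35, 1.13 and 2.04 CPM, differed by 0.04 (SE 0.40, adjusted p = 0.990).

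Krt23 spread widely in treated mice, at 7.71, 12.7, 9.47 and 3.22 CPM. Treated mouse 4 was at the naive level and the other 3 were within the STAM_vehicle range. The log2 fold change was -0.40 (SE 0.35, adjusted p = 0.816), and the within-lane ratios were -1.22, -1.12 and -0.41. Sox9 was at 5.76, 6.39, 7.44 and 8.43 CPM in treated mice, 3 of them below every STAM_vehicle mouse, with a log2 fold change of -0.37 (SE 0.18, adjusted p = 0.614). The remaining ductular genes differed little: Krt7 (1.64, 1.57, 1.34 and 1.40 CPM) by 0.17 (SE 0.21, adjusted p = 0.895), and Epcam (2.70, 2.05, 1.90 and 1.93 CPM) by -0.03 (SE 0.28, adjusted p = 0.990).

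Spp1 reached its highest value of the 12 livers, 77.6 CPM, in treated mouse 1, with 49.4, 55.1 and 65.2 CPM in treated mice 2 to 4. The groups overlapped and the log2 fold change was 0.18 (SE 0.19, adjusted p = 0.859). None of the 6 lipid-associated macrophage markers was called in this comparison (median log2 fold change 0.17).

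**Figure D4:**
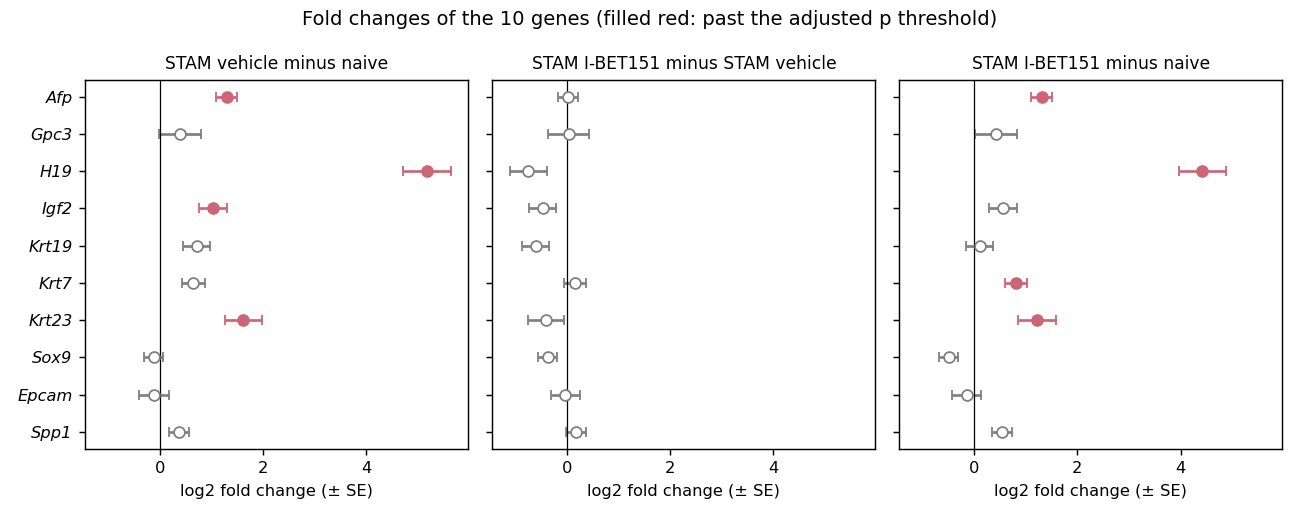
Log2 fold change ± SE of the 10 genes in the 3 comparisons, with filled red points for genes past the adjusted p threshold (0.05 against naive, 0.1 for treated against vehicle). H19, Krt23, Afp and Igf2 are filled in the left panel, none in the middle panel, and H19, Krt23, Afp and Krt7 in the right panel.

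STAM_treated livers were also set against Naive_vehicle livers, to place the treated liver relative to the healthy one. Here 4 of the 10 genes were called higher (H19, Afp, Krt23 and Krt7) and 0 lower, against 9.88% higher and 5.25% lower of all genes. Every treated mouse exceeded every naive mouse for 3 of them (H19, Afp and Krt7), as for 10.9% of all genes. Without treated mouse 3, Krt23 dropped out and 3 of the 10 were called, against 10.9% higher and 9.53% lower of all genes. H19 was higher by 4.43 (SE 0.46, adjusted p = 1.23e-04) and by 4.71 without treated mouse 3. Afp was higher by 1.31 (SE 0.20, adjusted p = 0.00149) and by 1.38 without it. Because this comparison and the first share the naive mice, and this and the second share the treated mice, their calls are not independent.

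Krt7 was higher by 0.82 (SE 0.22, adjusted p = 0.0257), and missed the threshold without naive mouse 1, 2 or 3 or treated mouse 1 (adjusted p from 0.0522 to 0.0878). Krt23 was higher by 1.22 (SE 0.36, adjusted p = 0.0370) although treated mouse 4 lay inside the naive range. It missed the threshold without any naive mouse or without treated mouse 1, 2 or 3 (adjusted p from 0.0573 to 0.0962). Igf2, called in STAM_vehicle livers, was not called here (log2 fold change 0.56, SE 0.27, adjusted p = 0.169), and its difference between treated and vehicle livers also did not pass. Sox9 was at -0.48 (SE 0.18, adjusted p = 0.0900). Spp1 was at 0.55 (SE 0.19, adjusted p = 0.0690), with an adjusted p of 0.0404 without treated mouse 2. With lane as a covariate only H19 of the 10 genes passed (adjusted p = 0.0128).

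The wider programmes to which these genes belong were followed in lists chosen by function, with earlier results of these data known. The counts of calls in these lists are therefore a description and no independent evidence of a wider programme. Of 16 other oncofetal genes, 11 had enough counts to be tested, and 6 of them were higher and 0 lower in STAM_vehicle than in naive livers. Of these 6, Igdcc4, Sall4 and Spink1 had fewer than 10 counts in every naive library and reached the test only through the STAM livers, where they were high, so their calls carry no weight in the count. Of the 8 tested genes with at least 10 counts in a naive library, 3 were higher and 0 lower. Over all genes 5.72% were called higher and 1.38% lower. Igdcc4, a cell-surface receptor of the immunoglobulin family, rose by 6.20 (SE 1.47, adjusted p = 0.0221). It was at 0.0638 to 0.233 CPM in naive livers and at 1.49, 3.20, 27.1 and 9.38 CPM in STAM_vehicle livers, so it was high in all STAM_vehicle mice but to very different degrees. Ly6d, a surface antigen of epithelial and lymphoid cells, rose by 4.67 (SE 0.47, adjusted p = 1.40e-04), and Sall4, a transcription factor of stem cells and fetal liver, by 3.91 (SE 0.51, adjusted p = 7.38e-04).

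The remaining 3 were Spink1 (3.37), Igf2bp3 (2.496) and Igf2bp2 (1.73), the last pair being RNA-binding proteins that bind Igf2 and H19 transcripts. Igf2bp3 was also the gene most like H19 over the 12 mice (Pearson r = 0.968 of log2 CPM), going from 0.431 to 0.727 CPM in naive to 2.62 to 3.62 CPM in STAM_vehicle livers. Pgd (0.965) and Gpx2 (0.962) were nearly as close to H19. These correlations run over mice of 3 groups between which H19 differed, and are a description only. Dlk1, an imprinted fetal hepatoblast gene, was too low to test, at 0 to 1 counts in naive and 4 to 16 counts in STAM_vehicle libraries. Without STAM_treated mouse 3, when 12% of all genes were called higher, 10 genes of the list were higher in STAM_vehicle than in naive livers, Dlk1 then among them (log2 fold change 4.53, SE 0.91, adjusted p = 0.00525). Dlk1, like Igdcc4, Sall4 and Spink1, had fewer than 10 counts in every naive library and reached the test only through the STAM livers. Calls of these genes carry no weight in this count either. In treated against vehicle livers 0 of the 11 genes passed edgeR's test. Treated against naive livers gave 8 calls, all higher, when 9.88% of all genes were called higher. Sall4 and Igdcc4 are among the 8, and their calls carry no weight here for the same reason.

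Of 14 imprinted genes other than H19 and Igf2, 12 were tested. With all 12 mice only Plagl1, a zinc finger factor of the imprinted gene network, passed in STAM_vehicle against naive livers (log2 fold change 0.94, SE 0.26, adjusted p = 0.0481), and the median was 0.43, against 0.01 over all genes. The shares of all genes called were 5.72% higher and 1.38% lower. Leaving out STAM_treated mouse 3 gave 5 higher and 0 lower, the added ones including Meg3 (1.29, adjusted p = 0.0403) and Rian (1.55, adjusted p = 0.0252), non-coding RNAs of the Dlk1 locus, with Grb10 and Dlk1 itself. In that fit 12% of all genes were called higher. Dlk1, at 0 to 1 counts in naive libraries, reached the test only through the STAM livers, so its call carries no weight in the count. No gene of this list was called in treated against vehicle or treated against naive livers with all 12 mice. Genes known to control Afp and H19 showed no call in STAM_vehicle livers (0 of 7). Zhx2, a repressor of both in the adult mouse liver, was at a log2 fold change of -0.08 (SE 0.12, adjusted p = 0.735), and Zbtb20, a repressor of Afp, at -0.02 (SE 0.18, adjusted p = 0.959). Both turned positive with library-size scaling. Without STAM_treated mouse 3, 2 of the 7 were lower, Nr5a2 (-0.48, adjusted p = 0.00547) and Ctcf (-0.24, adjusted p = 0.0305), against 10.3% of all genes. In treated against naive livers 3 of the 7 were lower: Nr5a2 by -0.65 (adjusted p = 0.0163), Zhx3 by -0.64 (adjusted p = 0.0330) and Ctcf, the insulator protein of the H19 and Igf2 locus, by -0.45 (adjusted p = 0.0111). Over all genes 5.25% were called lower in that comparison.

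Afp sits in a cluster with Alb, Afm and Gc on chromosome 5, and its neighbours went the other way or did not pass. Afm (afamin, a vitamin E carrier) fell by 1.06 on the log2 scale in STAM_vehicle livers (SE 0.16, adjusted p = 0.00190) and every naive mouse was above every STAM_vehicle mouse. Alb was at -0.97 (SE 0.49, adjusted p = 0.259) and Gc at -0.42 (SE 0.36, adjusted p = 0.537), both without overlap of the groups, as for 12.2% of all genes in the downward direction. Alb passed the test when STAM_treated mouse 3 was left out (-0.995, SE 0.24, adjusted p = 0.0126). None of the 6 hepatocyte markers passed with all 12 mice. Without STAM_treated mouse 3, 4 of them were lower, when 10.3% of all genes were called lower. The summed level of the 6 markers was 97379 to 113569 CPM in naive and 47078 to 69244 CPM in STAM_vehicle livers. In treated against vehicle livers none of the cluster was called, with log2 fold changes of 0.13 for Alb, 0.09 for Afm and -0.05 for Gc.

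Of 24 other ductular genes, 23 were tested and 5 were higher and 0 lower in STAM_vehicle livers, against 5.72% higher and 1.38% lower of all genes. Dmbt1 and Sctr had fewer than 10 counts in every naive library and reached the test only through the STAM livers. Calls of these genes against naive livers therefore carry no weight in the counts of this list. Of the other 21 tested genes 4 were higher and 0 lower (median log2 fold change 0.35). Dmbt1, a secreted mucin-like protein of injured ducts, had 0 counts in all 4 naive livers and 20 to 62 counts in STAM_vehicle livers, a mean at least 9.26-fold higher than a floor of 3 counts per naive library. Ggt1, the gamma-glutamyl transferase of ducts and fetal hepatocytes, rose by 1.66 (SE 0.35, adjusted p = 0.0127), and Cldn4, a tight junction protein, by 1.56 (SE 0.42, adjusted p = 0.0388). The other two were Elf3 and Tspan8. The keratin pair of all liver epithelium, Krt8 (0.48, SE 0.29, adjusted p = 0.358) and Krt18 (0.46, SE 0.22, adjusted p = 0.237), was not called. Every STAM_vehicle mouse exceeded every naive mouse for both, as for 10 of the 23 ductular genes and 14.2% of all genes. Without STAM_treated mouse 3 both passed (0.46, adjusted p = 0.0268, and 0.44, adjusted p = 0.0167), and 9 of the ductular list were higher, as were 12% of all genes. In treated against vehicle livers 0 of the 23 genes passed. In treated against naive livers 6 did, all higher and Dmbt1 among them, when 9.88% of all genes were called higher.

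YAP and Notch signalling steer hepatocytes toward duct-like states, and 4 of 15 genes of these pathways were higher in STAM_vehicle livers: the ligand Jag2 (1.58, adjusted p = 0.0485), the Notch target Hey1 (1.23, adjusted p = 0.0377), the YAP-pathway scaffold Ajuba (0.95, adjusted p = 0.0122) and Axl. Over all genes 5.72% were called higher and 1.38% lower. The median of the 15 was 0.26, and 9 of them had a log2 fold change above 0, in a range from -0.61 to 1.58. Whether either pathway was more active was not tested. The number higher was 4 as well without STAM_treated mouse 3, with 2 lower (Amotl2 and Lats2), against 12% higher and 10.3% lower of all genes. In treated against vehicle livers 0 of the 15 passed, and 5 were higher in treated than in naive livers, against 9.88% of all genes.

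The calls of these companion genes differed in how far they rested on single mice. Igf2bp2, Igf2bp3, Ly6d, Sall4, Ggt1, Axl and Afm kept their call in STAM_vehicle against naive livers in all 12 fits that left out a mouse. For Sall4, and for Igdcc4, Spink1 and Dmbt1 below, such fits add no weight, since these genes reached the test only through the STAM livers. Spink1 missed the threshold without naive mouse 2 or 3 and Ajuba without naive mouse 3. Igdcc4, Plagl1, Dmbt1, Cldn4, Elf3, Tspan8, Jag2, Hey1 and Cd44 each missed it without any of naive mice 2, 3 and 4 and STAM_vehicle mouse 3, and in part without other mice, with highest adjusted p values from 0.07505 for Igdcc4 to 0.1499 for Plagl1. With lane as a covariate none of these genes passed.

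**Figure D5:**
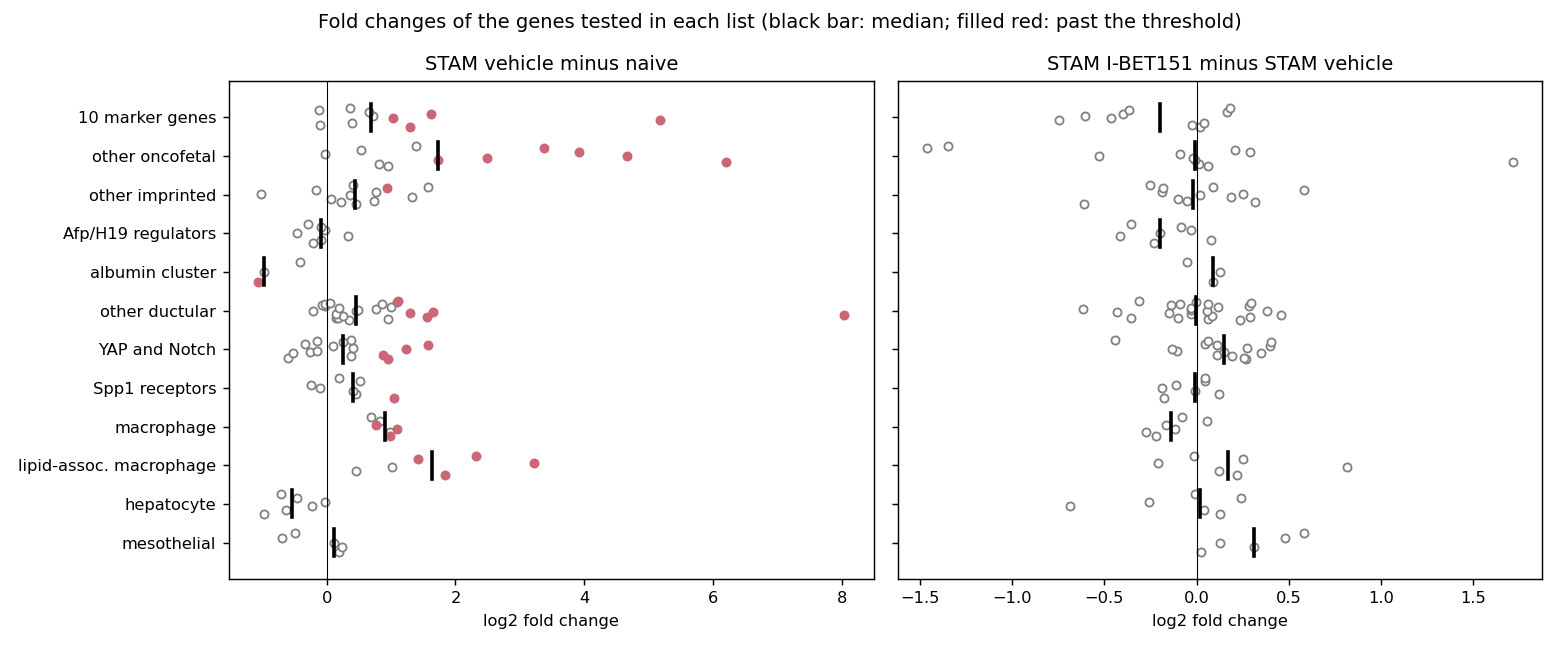
Log2 fold changes of the tested genes of each list, in STAM_vehicle against naive livers (left) and STAM_treated against STAM_vehicle livers (right, with a narrower axis), where filled red points passed the threshold and black bars are medians over the genes tested. Of the 10 marker genes 4 are filled on the left, and no gene of the lists plotted is filled on the right.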

How the data were processed

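Poly(A) RNA libraries (a stranded kit, paired-end reads) were made from liver of 12 mice and mapped by the authors to mm10 (GRCm38) with STAR 2.5.1b. The authors deposited whole-number counts of uniquely mapped reads per gene, without normalization. The methods name htseq-count, the deposited tables' names point to featureCounts, and the strand setting of the counting is not given in the sources used here, so reads of overlapping antisense genes may be included. Groups were taken from the sample titles. The study's own test dropped a STAM_treated sample, not identified in the methods, because its gene counts were low. All 4 were kept here and each was left out in turn.

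The main test was that of edgeR 4.0.16 in R 4.3.3 (TMM, filterByExpr with a minimum count of 10, glmQLFit and glmQLFTest) in 1 fit of 3 groups. Benjamini-Hochberg adjustment ran over 16823 genes, with thresholds of 0.05 against naive mice and 0.1 for treated against vehicle mice. Symbols, positions and exon lengths came from GENCODE M21 by gene ID (47224 of 47729 IDs matched), and Tf was matched through its RefSeq synonym. Promoter windows and microRNAs came from RefSeq (GRCm38.p6). The steps were tested on simulated data.

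The 10 genes and the lists were chosen with earlier results of these data known. All 10 are named, together with the genes of each list past a threshold (at most the 3 with the largest fold change in each direction, the rest being counted, and named where they were few after their values were seen), Zhx2, Zbtb20, Krt8, Krt18, the albumin cluster and the genes most like a member by Pearson correlation of log2 CPM (prior count 2). Alternatives were DESeq2 1.42.0, RLE scaling, other filters, fits of the 2 groups compared, a replicate block, lane as a covariate, other thresholds and fits without each mouse. Library-size scaling was added after seeing the data. Same-numbered mice did not deviate together (r from -0.351 to 0.0933), so the numbers were not taken as pairs. The 18 pairs of mice within groups all differed by more than sampling noise (chi-square at least 30.5 per degree of freedom). Nothing states that the mice came from separate litters or cages, and p-values measure the spread among these mice.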

Additional observations from a re-analysis of the deposited data

Results flagged for a closer look

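Of 126 groups of 4 mice (42 named genes in 3 groups), 4 held a mouse whose gap to its nearest neighbour exceeded Dixon's critical value at the 95% level, and 0 of the 30 groups of the 10 marker genes did. Chance gives about 1 such group in 20. STAM_vehicle mouse 3 accounted for 3 of the 4. It had 8.59 CPM of Golm1, a Golgi protein raised in liver cancer, with the nearest mouse of its group at 4.92 CPM. Its Sox4, a factor of ductal progenitors, was at 2.48 CPM with the nearest at 1.38 CPM, and its Zhx2 at 16.2 CPM was below the nearest value of 18.7 CPM. The remaining value was Alb in STAM_treated mouse 3, at 12570 CPM with the nearest treated mouse at 52510 CPM.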

How the results depend on the processing

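H19 and Afp kept their direction and call against naive livers under DESeq2, RLE scaling, library-size scaling, both other filters, fits of the 2 groups compared, the replicate block and every fit that left out a mouse, and H19 also with lane as a covariate. In treated against vehicle livers 0 of the 10 genes was called under any of these. Below, numbers of genes are given as higher and lower for vehicle against naive (V/N), treated against vehicle (T/V) and treated against naive (T/N). DESeq2 gave 492 lower (V/N), 94 and 174 (T/V) and 1348 lower (T/N). Library-size scaling moved the median gene by 0.272, 0.108 and 0.397, and gave 61 lower (V/N), 2 and 4 (T/V) and 3234 and 246 (T/N). It reversed Sox9 (0.16), Epcam (0.13), Zhx2 (0.18) and Zbtb20 (0.27) in V/N, Epcam (0.074) in T/V, and Epcam (0.21), Zhx2 (0.19) and Zbtb20 (0.32) in T/N, where Spp1 gained a call (0.905, adjusted p = 0.0264). Without a filter T/V gave 27 and 74, Afp was at -0.0032, and Igf2 in V/N (adjusted p = 0.0520) and Krt7 in T/N (0.0685) lost their calls. With at least 10 counts in every mouse Zbtb20 was at 0.0093 in V/N. Fits of the 2 groups alone gave 2085 and 1794 (V/N), 2 and 6 (T/V) and 933 and 329 (T/N), with 2 of the 10 genes higher in T/N, where Krt7 and Krt23 were lost. With the replicate block the numbers were 641 and 101 (V/N), 2 and 8 (T/V) and 1065 and 508 (T/N), with 2 of the 10 genes higher in T/N. The block cost Igf2 its V/N call (adjusted p = 0.0598) and Krt7 (0.0721) and Krt23 (0.0545) their T/N calls, although same-numbered mice did not deviate together. With lane as a covariate there were 33 and 4 (V/N), 0 and 0 (T/V) and 67 and 18 (T/N), with 1 of the 10 genes higher in V/N and 1 in T/N. Lane reversed Zbtb20 (0.38) and Gc (0.10) in V/N, Afp (-0.10), Gpc3 (-0.031) and Epcam (0.078) in T/V, and Krt19 (-0.012) and Zbtb20 (0.25) in T/N. At an adjusted p of 0.01, 2 of the 10 were higher in V/N and 2 in T/N. At 0.2 there was 1 lower in T/N (Sox9). Krt7 (adjusted p = 0.0947) and Krt19 (0.120) then joined the genes higher in V/N, and Spp1 (0.0690) and Igf2 (0.169) those higher in T/N. The causes of these differences were not tested.

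Fits that each left out a mouse gave 458 to 2028 genes higher and 82 to 1751 lower in V/N (the most without STAM_treated mouse 3, the fewest without naive mouse 3 or 2), 2 to 155 and 10 to 248 in T/V (the most without treated mouse 3), and 914 to 2378 and 375 to 1617 in T/N. Of the 10 genes they called 2 to 5 in V/N and 2 to 4 in T/N. Some small fold changes changed sign: in V/N Epcam ranged from -0.36 to 0.023, Sox9 from -0.24 to 0.0039 and Zbtb20 from -0.16 to 0.13, in T/V Afp from -0.11 to 0.14, Gpc3 from -0.16 to 0.27 and Epcam from -0.16 to 0.078, and in T/N Zbtb20 from -0.19 to 0.10. Igf2, H19 in naive livers and Krt7 rested on as few as 13, 10 and 27 counts per library, which limits their precision.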

Other observations

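Markers of immune and other cell types were followed beside the 10 genes. Of 5 tested T cell markers, Cd8a, the co-receptor of cytotoxic T cells, was higher in STAM_vehicle than in naive livers (log2 fold change 2.31, SE 0.41, adjusted p = 0.00482), and Cd4, the co-receptor of helper T cells, was lower in STAM_treated than in STAM_vehicle livers (-1.77, SE 0.32, adjusted p = 0.0520). Both calls held without STAM_treated mouse 3, and Cd4 was then also higher in STAM_vehicle than in naive livers (1.00, adjusted p = 0.0233). The summed level of the 5 markers was 1.55 to 4.597 CPM in naive, 4.27 to 6.30 CPM in STAM_vehicle and 1.70 to 2.42 CPM in STAM_treated livers. Of 3 B cell markers and 5 endothelial markers, 0 were called by edgeR in the 3 comparisons with all 12 mice, and Lyve1, an endothelial marker, was higher in STAM_vehicle than in naive livers without STAM_treated mouse 3 (0.52, adjusted p = 0.0376). Among 6 stellate cell markers 0 were called in STAM_vehicle against naive livers (Lrat was lower without STAM_treated mouse 3, adjusted p = 0.0387), whereas in treated against naive livers Pdgfrb was higher (0.85, adjusted p = 0.0372) and Reln (-0.65, adjusted p = 0.0289) and Ecm1 (-0.60, adjusted p = 0.0279) were lower. Without STAM_treated mouse 3, Pdgfrb lost this call. The treated against naive comparison then gave 0 stellate markers higher and 2 lower, against 10.9% and 9.53% of all genes.

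Of 5 exocrine pancreas genes only Cela2a had enough counts to be tested, and it was higher in treated than in naive livers (2.45, SE 0.60, adjusted p = 0.0166) at a summed level of the list of at most 1.84 CPM. Without STAM_treated mouse 3 it was also higher in treated than in vehicle livers (1.95, SE 0.42, adjusted p = 0.0532), the only gene of the lists called higher in that comparison. The 5 nuclear transcripts had 0 calls in the 3 comparisons with all 12 mice. Without STAM_treated mouse 3, 2 were higher in STAM_vehicle than in naive livers, when 12% of all genes were called higher. The sum of these transcripts reached 4804 CPM in STAM_treated mouse 3, against 824 to 2122 CPM in the naive and STAM_vehicle livers.

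Other genes close to a marker gene over the 12 mice were Bhlha15 for Afp (Pearson r = 0.989 of log2 CPM), Ggt1 for Igf2 (0.949), Hoxa5 for Krt19 (0.914), Cd300ld3 for Krt7 (0.931), Dus1l for Krt23 (0.916), Supt7l for Sox9 (0.879), Aard for Epcam (0.937) and Mctp1 for Spp1 (0.951). Each is the highest correlation with any other tested gene, over mice of 3 groups, and is a description only.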
